A study of Mus musculus with 6 samples.

Results

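The genes described here are the replication-dependent histone genes of the mouse, which encode the linker histone H1 and the core histones H2A, H2B, H3 and H4. They were taken as all table entries whose symbol starts with Hist1h, Hist2h, Hist3h or Hist4h, and 71 of the 37620 genes in the deposited count table matched. Of these, 59 had 10 or more counts summed over the 6 libraries and are the members described: 5 H1, 14 H2A, 16 H2B, 11 H3 and 13 H4 genes. The lowest totals inside the limit were 14 counts, for Hist1h2bf and the pseudogene Hist3h2bb-ps. The highest total outside it was 8 counts, for Hist2h3c1. Among the 12 genes left out, 5 had no count in any library, which over all 6 libraries allows up to 0.0237 CPM, the library-scaled read count used throughout. That limit is the level of 3 counts and covers counting error only.

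The study sequenced RNA of splenic B cells from C57Bl/6 mice aged 4 months, kept ex vivo with 12.5 µg/ml IL-4 and 1 µg/ml of an antibody to CD40, a pair of signals that drives B cells into division. All cells were infected with a retrovirus at 24 and 48 h and sorted at 96 h for mCherry, which stands in for infection. The 3 control libraries carry the vector pMIR and the 3 others carry pMIR-Sox2, which adds the transcription factor Sox2. The labels do not say whether replicates came from separate mice, so the spread between libraries may be partly technical. In such bulk samples a smaller share of dividing cells and less histone RNA per cell cannot be told apart.

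Replication-dependent histones package newly made DNA, and their genes are transcribed mainly in S phase from clusters of many genes. The copies for each core histone differ little in protein. The genes lie on several chromosomes, with the largest cluster holding all of the H1 genes of this set. Their mRNAs differ from nearly all others: most end not in a poly(A) tail but in a conserved stem-loop, which the stem-loop binding protein SLBP holds during processing and translation. Some members also give rise to polyadenylated transcripts, chiefly in cells that leave the cycle. The labels say total RNA and a standard Illumina preparation, and the sources used here do not state a poly(A) selection. The levels below can therefore stand for either kind of transcript.

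The stem-loop was searched in the GENCODE M21 (GRCm38) transcripts of the members, because it is the feature that sets these mRNAs apart. The pattern was GGNNCT, 4 loop bases and AGNNCC, with arms of 6 bases that pair perfectly, on the transcript strand. It was found in 42 of the 58 members matched to a transcript, against 131 of 21835 other protein-coding genes. Where none was found, the annotated transcript may stop short of the loop. Those of Hist1h4k and Hist1h3h, for example, hold only 312 and 411 bases. The forms carried by members that rose, and the H4 form of the most abundant H4 gene, are given here 5′ to 3′ with the loop in capitals.
Hist1h1c, Hist3h2a and Hist3h2ba: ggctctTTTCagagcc
Hist1h3c: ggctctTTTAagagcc
Hist1h4h: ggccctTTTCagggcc
Hist1h4i: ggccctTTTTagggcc
The left arm was GGCTCT in all 30 H1, H2A, H2B and H3 members with a stem-loop and in none of the 12 H4 members with one. Of those 12, 10 had GGCCCT and 2 had GGTCCT. The stem therefore told H4 from the other classes, while the form of Hist1h1c, the member with the largest change below, was shared by 23 members.

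Promoters were read from the RefSeq table (GRCm38.p6), which held 52 of the 59 members. Windows ran from 250 bases before to 50 bases after the gene start and were searched on both strands. The TATA box was searched as TATAAA and the box known by its letters as CCAAT. The octamer bound by POU factors was searched as ATTTGCAT. A box known from H1 promoters, AAACACA, was added after the first look at the sequences. None of these motifs contains another. The 250 bases upstream of 3 members that rose are shown 5′ to 3′ on the gene's strand, with matches on either strand in capitals, because they carry different motifs.
Hist1h1c, chr13:23738557-23738806, plus strand: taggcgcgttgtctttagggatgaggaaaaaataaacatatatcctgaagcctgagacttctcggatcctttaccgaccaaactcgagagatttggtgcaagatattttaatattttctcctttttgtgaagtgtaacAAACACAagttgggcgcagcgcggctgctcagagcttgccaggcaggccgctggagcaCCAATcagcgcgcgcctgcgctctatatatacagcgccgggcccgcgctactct
Hist3h2a, chr11:58954435-58954684, plus strand: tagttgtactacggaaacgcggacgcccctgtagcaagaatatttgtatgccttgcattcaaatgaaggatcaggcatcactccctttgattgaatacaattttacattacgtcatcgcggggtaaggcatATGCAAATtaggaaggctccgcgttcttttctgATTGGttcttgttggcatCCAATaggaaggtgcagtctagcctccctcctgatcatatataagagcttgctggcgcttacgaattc
Hist1h4h, chr13:23530794-23531043, plus strand: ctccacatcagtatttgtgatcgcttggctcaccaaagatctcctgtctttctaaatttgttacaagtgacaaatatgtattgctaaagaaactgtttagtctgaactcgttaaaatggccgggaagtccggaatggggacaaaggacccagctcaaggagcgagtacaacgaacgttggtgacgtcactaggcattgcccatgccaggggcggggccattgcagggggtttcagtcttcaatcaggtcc
Hist1h1c carried AAACACA and CCAAT, Hist3h2a the octamer and CCAAT, and Hist1h4h none of the 4 motifs in the stretch shown. CCAAT was present in 43 of the 52 member promoters (82.7%, against 37.4% of all promoters), in all 40 outside H4 and in 3 of 12 H4 promoters. TATAAA was present in 31 (59.6% against 13.6%). The octamer was present in 11 (21.2% against 1.74%), in 6 of 13 H2A and 5 of 13 H2B promoters and in no other class. AAACACA was present in 6, of which 4 were among the 5 H1 promoters, against 7.18% of all promoters. These matches are letters in a window and were not tested as binding sites.

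The libraries held between 17153805 and 27692437 gene counts. Sox2 was listed at 20, 7 and 37 counts in the pMIR libraries and at 21528, 14536 and 10763 in the pMIR-Sox2 libraries, so each library matched its label. On the first principal component over all tested genes the pMIR libraries lay together, from -54.9 to -52.1, and pMIR-Sox2 replicates 1 to 3 lay at 57.9, 68.3 and 35.0. Replicate 3 of pMIR-Sox2, which was nearest to the controls, had the lowest Sox2 level of its group and the highest level of 35 of the 40 tested histone genes. Its part in the results was not tested beyond leaving it out, and sums are given with and without it. B cell markers were abundant, with Cd79a at a mean of 652 CPM in pMIR and 764 in pMIR-Sox2. Their levels changed in both directions: Cd79b fell (789.7 to 346.7 CPM) and Pax5 rose (186.9 to 346.7 CPM). T cell markers summed to 1.18 to 1.97 and 0.757 to 1.68 CPM. Myeloid markers summed to 35.9 to 38.4 and 35.1 to 38.3 CPM, with S100a8, S100a9 and Elane at 0. Within that even sum 3 of the 4 tested markers changed: Lyz2 rose from 0.0283 to 0.653 CPM, Emr1 rose from 18.6 to 27.4 CPM and Cd68 fell from 17.8 to 8.18 CPM (adjusted p = 0.000604, 0.0063 and 0.000449). Erythroid markers summed to 1.18 to 1.58 and 1.88 to 3.03 CPM, with Hba-a1, Hba-a2 and Hbb-b1 at 0, and the 1 marker tested, Hbb-b2, rose from 0.751 to 1.83 CPM (adjusted p = 0.00855). The part of these marker changes in the histone levels was not tested.

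Histone genes were low in both groups and tended to be higher in pMIR-Sox2, most of all in its replicate 3. Few of them passed the test. Of the 59 members, 40 had enough counts to be tested with edgeR's quasi-likelihood test, unpaired, and Benjamini-Hochberg adjustment over all genes. Of these, 5 rose in pMIR-Sox2 at an adjusted p under 0.05 (Hist1h1c, Hist1h4h, Hist3h2a, Hist1h3c and Hist3h2ba) and 35 did not pass. The share that rose, 12.5%, was below the 23.2% of all 12898 genes tested that rose, Sox2 left out. None fell by edgeR, DESeq2 or limma-voom and none was lower at an unadjusted p under 0.05, while 20.0% of all genes fell. In 8 of 40 members every pMIR-Sox2 library was above every pMIR library, and 0 of 40 showed the opposite order, against 28.9% and 27.6% of all genes (56.5% either way). Fold changes were above 0 for 37 of 40 members (92.5%, against 48.7% of all genes), with a median log2 fold change of 0.44 against -0.02 over all genes. In 35 of the 40, pMIR-Sox2 replicate 3 was the highest library, and this count and median are not given without it. Without that library the ratio of the summed CPM of all members but Hist1h1c went from 1.29 to 1.04. Members share libraries and in part sequence, so these counts are descriptions. The 95% intervals of the 35 members that did not pass were wide: 9 lay within 1 log2 unit of 0, 25 reached above 1 and 2 reached below -1.

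**Figure D1:**
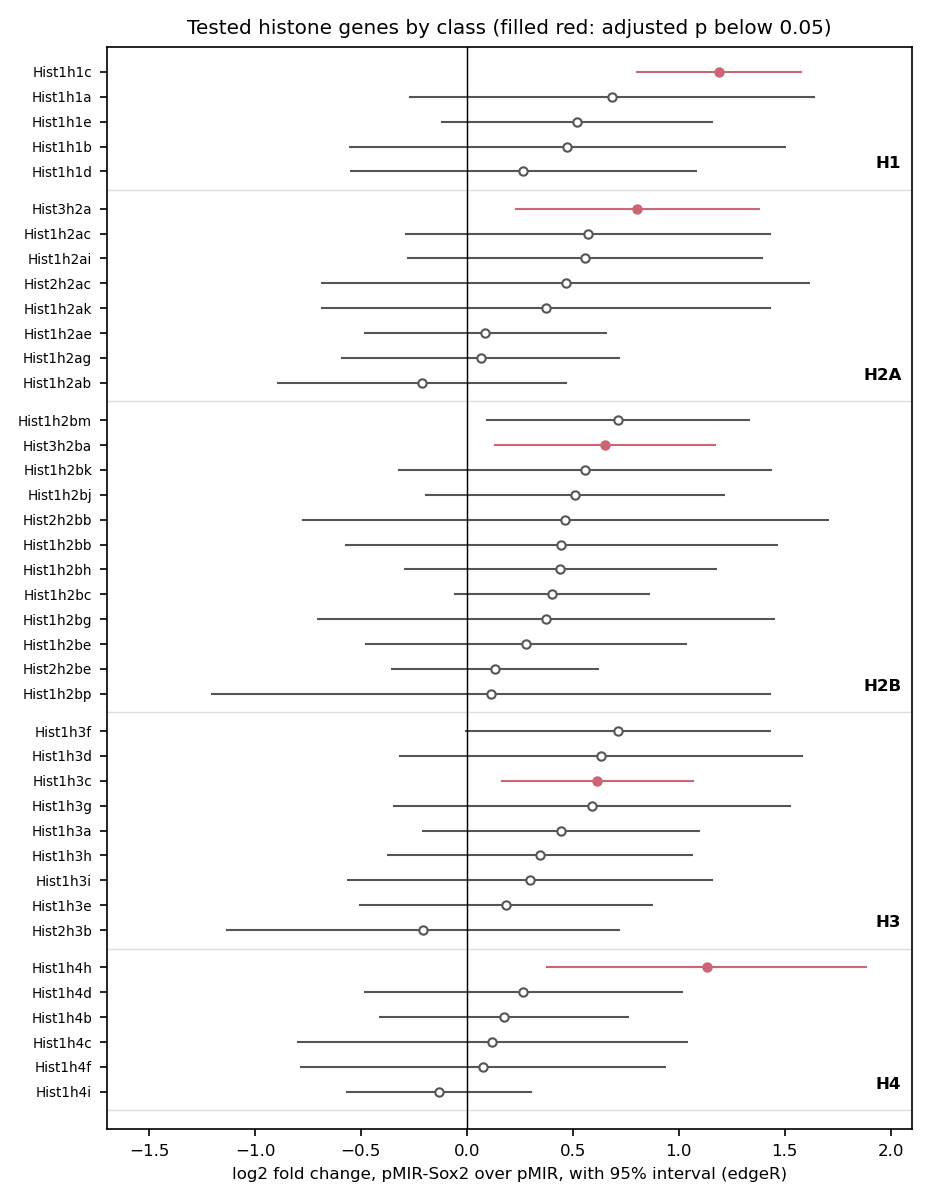
Log2 fold change of each of the 40 tested histone genes, pMIR-Sox2 over pMIR, by class, with 95% intervals from edgeR. Values run from -0.21 to 1.19, and the 5 genes that rose are marked.

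Linker histones bind the DNA between nucleosomes and compact it. Hist1h1c, which encodes the linker histone also called H1c, was the most abundant of the members and had the largest log2 fold change of the 40 tested, although Hist1h4h was above it without pMIR replicate 2 (1.30 against 1.23), pMIR replicate 3 (1.13 against 1.12) or pMIR-Sox2 replicate 2 (1.16 against 0.97). It measured 32.9, 34.2 and 29.1 CPM in pMIR and 58.2, 94.0 and 67.3 CPM in pMIR-Sox2. The groups were apart, and pMIR-Sox2 replicate 2 was highest. The ratio of the group means was 2.28 (log2 fold change 1.19 ± 0.17 SE, adjusted p = 0.000679, n = 3 and 3), and the gene passed under all 12 alternative settings, with log2 fold changes from 0.97 to 1.34. The exact two-sided permutation test of 3 against 3 libraries gave 0.1, the smallest p this design allows.

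The other 4 H1 genes did not pass. Hist1h1a measured 2.62, 4.72 and 3.98 CPM in pMIR against 2.71, 5.68 and 9.85 CPM, overlapping, with a log2 fold change of 0.68 ± 0.42 (adjusted p = 0.22). It passed without pMIR-Sox2 replicate 1 (1.05, adjusted p = 0.045). Hist1h1e measured 2.36, 4.38 and 3.36 CPM against 3.45, 5.41 and 5.62 CPM, with a log2 fold change of 0.52 ± 0.28 (adjusted p = 0.166). With the replicate number as a block Hist1h1e passed (0.52, adjusted p = 0.0356), and 6 members rose in that fit, against 27.0% of all genes. Each pMIR-Sox2 library was above its same-numbered control in this gene. Hist1h1e overlaps another gene on the same strand, so some of its reads may have been left uncounted as ambiguous.

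Hist1h1c was the only H1 gene that passed, and its share of the counts of the 5 H1 genes still overlapped between groups. It took 79.2, 69.6 and 67.5% of them in pMIR and 85.1, 85.1 and 71.6% in pMIR-Sox2. The Wilson 95% intervals of these shares, which cover counting error only, spanned 64.4 to 81.5% over the control libraries and 69.3 to 86.8% over those with Sox2. Its share of all member counts was 28.6, 28.3 and 25.1% in pMIR and 43.3, 48.4 and 30.5% in pMIR-Sox2, higher in each pMIR-Sox2 library. The 2 pMIR-Sox2 libraries other than replicate 3 stood clear of the controls on this measure, while replicate 3 was within 2 points of pMIR replicate 1.

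**Figure D2:**
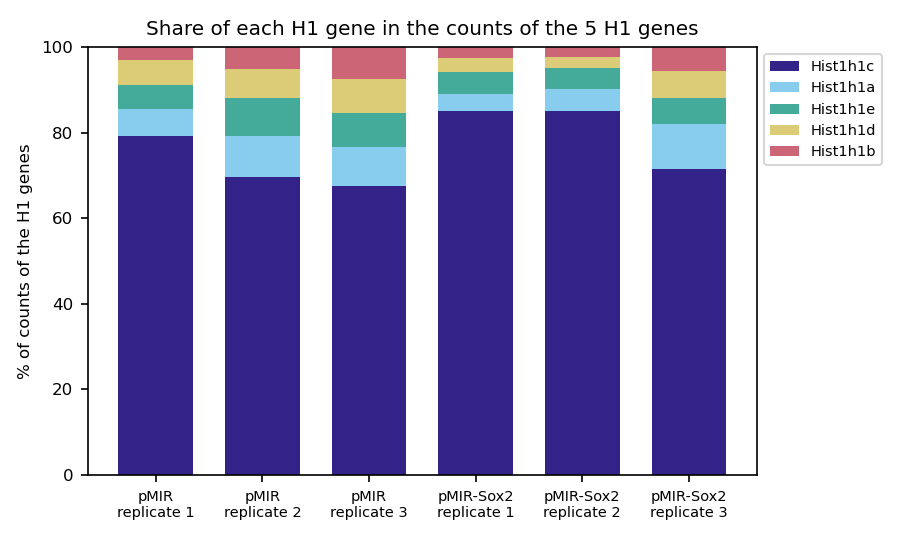
Percent of the counts of the 5 H1 genes taken by each gene, 1 stacked bar per library. Hist1h1c takes from 67.5 to 85.1% and is the largest share in all 6 libraries.

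Among the H2A genes, whose products pair with H2B in the nucleosome, 1 of 8 tested members rose, against 23.2% of all genes. Here and for H2B, H3 and H4 below, the counts are too few to set against that share. Hist3h2a measured 2.66, 2.91 and 2.16 CPM in pMIR against 3.17, 5.46 and 4.93 CPM in pMIR-Sox2, with no overlap. Its log2 fold change was 0.80 ± 0.25 (adjusted p = 0.0296). The call was lost without pMIR replicate 1 (adjusted p = 0.0767) or 3 (0.105), or without pMIR-Sox2 replicate 2 (0.101) or 3 (0.0587). Hist3h2a overlaps Trim17 on the same strand in GENCODE M21. The next most abundant H2A genes, Hist1h2ac and Hist1h2ae, overlapped between groups, with log2 fold changes of 0.57 ± 0.38 and 0.09 ± 0.25 (adjusted p = 0.252 and 0.797).

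Of the H2B genes, 1 of 12 tested members rose, against 23.2% of all genes. Hist3h2ba, which lies in the same small cluster as Hist3h2a, measured 2.73, 3.38 and 3.17 CPM in pMIR against 3.58, 5.36 and 5.68 CPM in pMIR-Sox2. The groups did not overlap, and the log2 fold change was 0.65 ± 0.23 (adjusted p = 0.0455). Of the 5 calls it held in the fewest settings: it was lost in limma-voom (adjusted p = 0.0558) and without pMIR replicate 1 (0.149), 2 (0.0629) or 3 (0.104) or pMIR-Sox2 replicate 2 (0.122) or 3 (0.107). Hist3h2a and Hist3h2ba were the only tested members of the Hist3 group. Both rose, too few to set against the 23.2% of all genes that rose. The more abundant Hist1h2bc measured 6.90, 6.24 and 5.04 CPM against 6.29, 8.55 and 9.27 CPM, overlapping (0.40 ± 0.20, adjusted p = 0.14). Hist2h2be measured 5.68, 6.48 and 5.86 CPM against 4.82, 6.65 and 8.35 CPM (0.13 ± 0.22, adjusted p = 0.643).

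H3, whose tail carries many of the known histone marks, had 1 riser among 9 tested members, against 23.2% of all genes. Hist1h3c measured 3.25, 3.15 and 4.08 CPM in pMIR against 4.92, 4.98 and 6.14 CPM in pMIR-Sox2, with no overlap. The log2 fold change was 0.61 ± 0.20 (adjusted p = 0.0335). The call was lost without pMIR replicate 1 (adjusted p = 0.114) or 2 (0.096) and without pMIR-Sox2 replicate 1 (0.0584), 2 (0.0526) or 3 (0.0806). Hist1h3a and Hist1h3e, next in level, had log2 fold changes of 0.44 ± 0.29 and 0.18 ± 0.31 (adjusted p = 0.243 and 0.653), with overlapping groups.

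H4, the partner of H3, had 1 riser among 6 tested members, against 23.2% of all genes, and that riser had very low counts. Hist1h4h had 8, 10 and 8 counts in pMIR and 16, 15 and 17 in pMIR-Sox2, or 0.295, 0.477 and 0.384 against 0.735, 0.811 and 0.985 CPM. Its log2 fold change was 1.13 ± 0.33 (adjusted p = 0.0225). It did not pass in DESeq2 (adjusted p = 0.0922) or without pMIR replicate 1 (0.0986) or 3 (0.0701) or pMIR-Sox2 replicate 2 (0.0574) or 3 (0.0596). The most abundant H4 gene, Hist1h4i, went slightly the other way: 13.8, 11.2 and 12.1 CPM in pMIR and 8.77, 10.9 and 14.4 CPM in pMIR-Sox2, with overlap (-0.13 ± 0.19, adjusted p = 0.604). Hist1h4d and Hist1h4b had log2 fold changes of 0.27 ± 0.33 and 0.17 ± 0.26 (adjusted p = 0.541 and 0.612).

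**Figure D3:**
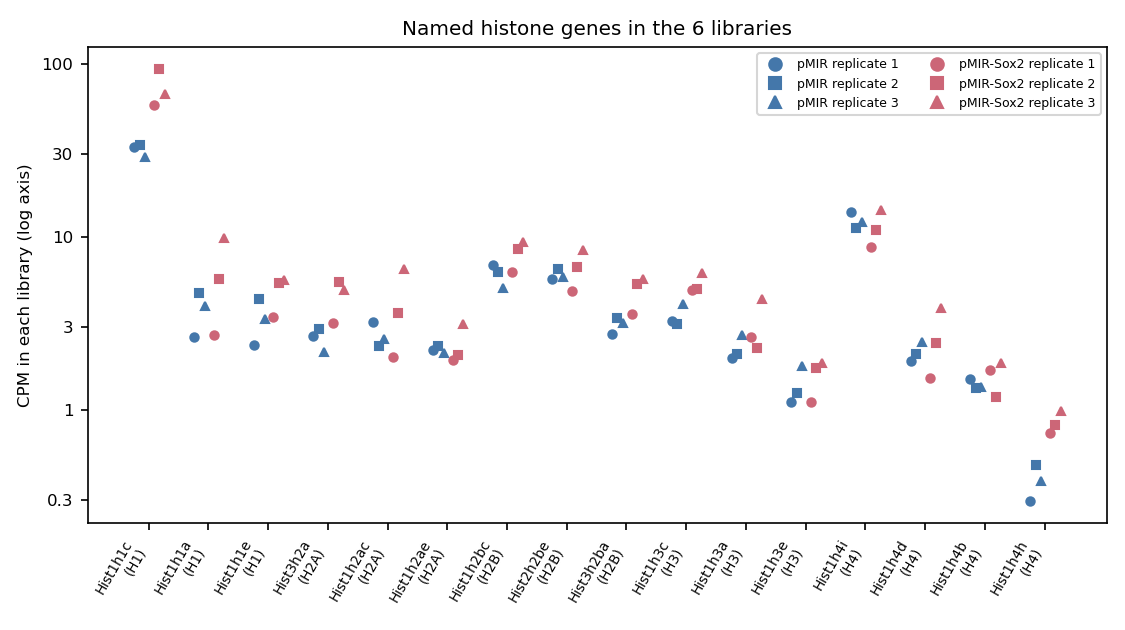
CPM of the named histone genes in each library, by group. Hist1h1c separates fully, from at most 34.2 in pMIR to at least 58.2 in pMIR-Sox2, while Hist1h4i overlaps between groups.

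By class, the medians of the log2 fold changes of tested members were 0.52 for H1, 0.42 for H2A, 0.44 for H2B, 0.44 for H3 and 0.15 for H4. Summed over all members of a class, H1 measured 44.6 ± 3.97 CPM in pMIR and 91.0 ± 21.3 CPM in pMIR-Sox2 (SD, n = 3), a ratio of 2.04, or 2.00 without pMIR-Sox2 replicate 3. The H2A sum went from 14.0 ± 0.192 to 19.4 ± 8.22 CPM (ratio 1.39, or 1.07 without replicate 3). Those of H2B went from 27.5 ± 1.66 to 37.0 ± 13.0 CPM (1.34, or 1.09) and of H3 from 11.02 ± 1.85 to 15.3 ± 3.45 CPM (1.39, or 1.21). The H4 sum was 20.1 ± 1.45 against 20.4 ± 6.42 CPM, a ratio of 1.01 that became 0.833 without replicate 3. Without Hist1h1c, all members summed to 82.2, 86.6 and 86.8 CPM in pMIR and to 76.2, 100 and 153 CPM in pMIR-Sox2, overlapping. That ratio of 1.29 became 1.04 without pMIR-Sox2 replicate 3. The H1 sum was thus higher in all 3 pMIR-Sox2 libraries, most of it from Hist1h1c. The H3 sum measured 9.88, 10.01 and 13.2 CPM in pMIR and 12.9, 13.8 and 19.2 CPM in pMIR-Sox2, so each pMIR-Sox2 library was above its same-numbered control while the groups overlapped.

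**Figure D4:**
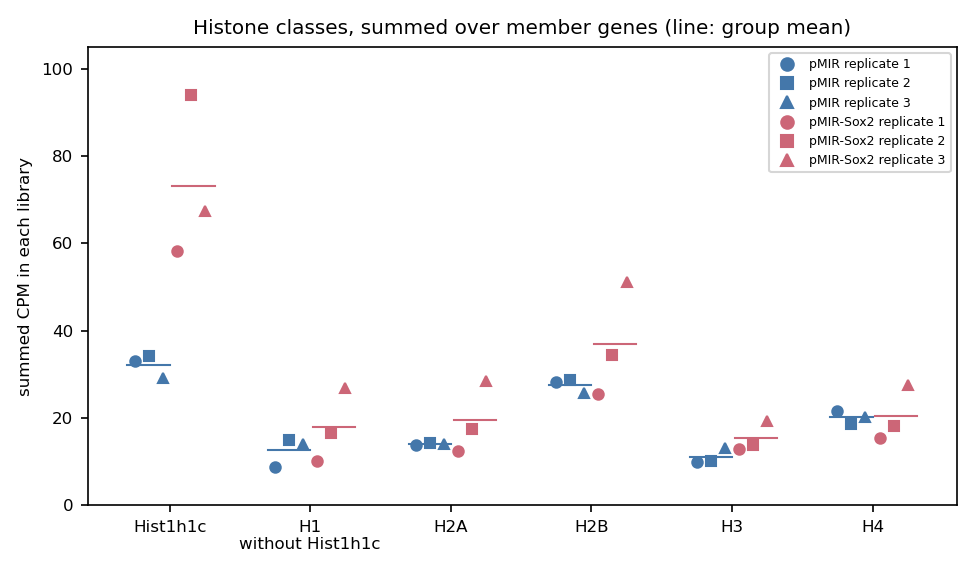
Summed CPM of the members of each class in each library, with Hist1h1c drawn apart from the other H1 genes. Hist1h1c has a ratio of 2.28 with separate groups, while the other H1 genes have a ratio of 1.42 and overlap. The core classes are highest in pMIR-Sox2 replicate 3.

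Levels between genes can be set side by side per kilobase of exon, with lengths from GENCODE M21 rather than the unstated annotation of the counts. Those lengths differ widely, as with 391 bases for Hist1h4f and 7425 for Hist1h1d, so the order is approximate. Per kilobase Hist1h1c stood at 20.6 CPM per kb in pMIR and 46.9 in pMIR-Sox2, and Hist1h4i at 17.02 and 15.6. The other tested members with a known length, all but Hist2h2bb, were at 6.40 CPM per kb or less in pMIR, led by Hist1h2bj. Counts of near-identical copies are uncertain, because reads aligned to several places stand in a line of their own outside the genes, which held 23.1 to 26.5% of a library's total. The median share of 50-base stretches unique in the transcripts was 56.8% in tested members and 28.5% in untested ones. It was 91.5% in Hist1h1c, 98.0% in Hist3h2a, 77.9% in Hist3h2ba, 53.0% in Hist1h3c and 54.2% in Hist1h4h. Of 17 members under 30%, 7 were tested and none rose, too few to set against the 23.2% of all genes that rose. The 19 members that were not tested had 14 to 60 counts in all, at most 0.811 CPM in any library. With a filter at 10 summed counts they could be tested, and 0 of them passed (lowest adjusted p = 0.163).

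Members that rose had annotated ends of both kinds. The annotated transcript ended within 100 bases after the stem-loop in 21 members, of which 14 were tested and 2 rose (median log2 fold change 0.46). It ran on further in 21 members, of which 16 were tested and 3 rose (0.41). It held no stem-loop in 16 members, of which 9 were tested and 0 rose (0.37). Some of these 16 may be annotated short of the loop. Of all genes tested 23.2% rose, and these counts are too small to tell the sets apart. Hist1h1c runs on for 840 bases and Hist3h2a for 1643, while Hist1h3c and Hist1h4h end 74 and 46 bases after the loop. In 10 pairs of members the genes start from a shared stretch in opposite directions. Hist3h2a, which rose, is paired with the untested pseudogene Hist3h2bb-ps. Both genes were tested in 4 pairs, and none of these 8 genes rose, too few to set against the 23.2% of all genes. Hist1h2ac and Hist1h2bc had log2 fold changes of 0.57 and 0.40, Hist1h2ae and Hist1h2bg of 0.09 and 0.37, Hist1h2ag and Hist1h2bj of 0.07 and 0.51, and Hist2h2ac and Hist2h2be of 0.47 and 0.13.

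The genes that act on histone mRNAs and proteins were read from lists beside the members. The shares of all genes to set these counts against are the 23.2% that rose and the 20.0% that fell. Of 23 genes of histone mRNA processing, 3 rose, 4 fell and 16 did not pass, with a median log2 fold change of -0.16, and with the replicate block 7 fell (25.7% of all genes did). Papd4, a poly(A) polymerase, went from 65.7 ± 2.99 to 112 ± 12.7 CPM (log2 fold change 0.77). Lsm11, a subunit of the U7 particle that cuts histone pre-mRNAs, went from 19.5 ± 0.799 to 12.8 ± 0.953 CPM (-0.61), and Upf1, a helicase of RNA decay, from 139 ± 11.8 to 96.1 ± 14.3 CPM (-0.53). Their adjusted p values were 0.000608, 0.00363 and 0.00897, and all 3 kept the call without any 1 library. Slbp, added after its values were seen, did not pass: 153, 137 and 145 CPM in pMIR against 121, 92.8 and 148 CPM (-0.27, adjusted p = 0.192). With the replicate block it passed as lower (adjusted p = 0.0392). Leaving out 1 library at a time, its adjusted p ran from 0.0236 to 0.512.

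Of 25 histone chaperone and assembly genes, 3 rose, 6 fell and 16 did not pass (median -0.28), against 23.2% and 20.0% of all genes. Asf1a, a chaperone of H3 and H4, went from 55.9 ± 5.48 to 108 ± 12.9 CPM (log2 fold change 0.95, adjusted p = 0.00038). Ipo9, an importin that carries histones, rose by 0.49 (adjusted p = 0.00776), and Ssrp1, a subunit of FACT, fell by 0.54 on the log2 scale (adjusted p = 0.00985). The count that fell was 15 with the replicate block (25.7% of all genes), 10 without pMIR-Sox2 replicate 3 and 1 without replicate 2 of that group. It was 1 without pMIR replicate 1 and 2 without pMIR replicate 3. Shares of all genes for the fits without a library are not given here. Of 10 tested replication-independent variants, 2 rose, 1 fell and 7 did not pass (median 0.03), against 23.2% and 20.0% of all genes. H1f0, a linker histone made outside S phase, went from 16.4 ± 1.60 to 26.6 ± 3.37 CPM (0.69, adjusted p = 0.00325). H2afv, an H2A.Z gene, rose by 0.59 (adjusted p = 0.00401), and H2afj fell by 0.49 (adjusted p = 0.00408).

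S phase genes, which mark the time when replication-dependent histones are made, had a median fold change of the opposite sign to that of the histone genes. On the histone side, the summed CPM of all members but Hist1h1c had a ratio of 1.29, or 1.04 without pMIR-Sox2 replicate 3. Of 32 S phase genes, 1 rose, 6 fell and 25 did not pass (median -0.28), against 23.2% of all genes that rose and 20.0% that fell. Pola1, a subunit of DNA polymerase alpha, rose by 0.52 (adjusted p = 0.00467). Mcm6 and Mcm3, subunits of the replicative helicase, fell by 0.50 and 0.57 (adjusted p = 0.0212 and 0.0226). Mcm6 did not pass without pMIR replicate 1 (adjusted p = 0.0865) or pMIR-Sox2 replicate 2 (0.0547). Mcm3 did not pass without pMIR replicate 1 (0.0813) or 3 (0.0693) or pMIR-Sox2 replicate 1 (0.0582). The number that fell was 19 with the replicate block (25.7% of all genes) and 19 without pMIR-Sox2 replicate 3. It was 1 without pMIR replicate 1 or 3 and without pMIR-Sox2 replicate 1 or 2. For the fits without a library the shares of all genes are not given here. The list summed to 7137, 6369 and 7222 CPM in pMIR and 6025, 4650 and 6727 CPM in pMIR-Sox2, where replicate 3 was again the highest of its group. The part of S phase content in the histone levels was not tested.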

How the data were processed

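The deposited table holds raw read counts per Ensembl gene for the 6 libraries. The build was mm9, and HTSeq 0.6.1p1 and SAMtools 0.1.19 are named with Bowtie2 2.2.2, TopHat2 2.0.11 and Trimmomatic 0.32, all per the submitters' processing notes, which give no roles. The strand setting, annotation and read length are not given in the sources used here. Lines that name no gene were left out of library sizes: reads not unique (23.1 to 26.5% of a total), in no feature (11.4 to 14.6%), not aligned (8.51 to 9.65%), ambiguous (0.283 to 0.307%) and low quality (0).

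Genes were tested with edgeR 4.0.16 (R 4.3.3; filterByExpr, TMM, robust quasi-likelihood fit of pMIR-Sox2 against pMIR, Benjamini-Hochberg adjustment over all genes, threshold 0.05), and the script was tested on simulated data. CPM are read counts over the library size scaled to 1000000 counts, after the filter and times its TMM factor. Alternatives were DESeq2 1.42.0, library totals alone, limma-voom (limma 3.58.1), no filter, a filter at 10 summed counts, a replicate block and leaving out each library. Same-numbered libraries, which share a number in the sample descriptions, deviated together (correlations 0.242, 0.359 and 0.189), so the numbers were taken to pair them. The main fit, its intervals and the permutation test leave this pairing out, and only the replicate block takes it in.

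In each class the text names up to 5 members of smallest adjusted p past the threshold and the 3 of highest mean CPM, and of each other list up to 3 genes past the threshold. The members and lists were chosen with earlier results of these data known. Transcripts came from GENCODE M21 and promoters from RefSeq, both on GRCm38, for sequence features and for the exon lengths behind the levels per kilobase.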

Additional observations from a re-analysis of the deposited data

How the results depend on the processing

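The number of histone genes that rose was 5, and it was 4 in DESeq2, 6 with library totals alone, 4 in limma-voom, 5 without a filter, 5 with the filter at 10 counts and 6 with the replicate block. Leaving out 1 library at a time it ran from 1 to 5: 1 without pMIR replicate 1, pMIR-Sox2 replicate 2 or pMIR-Sox2 replicate 3, where Hist1h1c alone passed, 2 without pMIR replicate 3 and 3 without pMIR replicate 2. Shares of all genes passing with a library left out are not given here, so these drops cannot be read as particular to histone genes. None fell under any of the 12 settings. Hist1h1c passed in all 12, Hist3h2a in 8, Hist1h3c and Hist1h4h in 7 and Hist3h2ba in 6. With the replicate block Hist1h1e passed as well (log2 fold change 0.52), and among the 16 named histone genes it changed no other call. Over these genes and 12 settings, 166 of 192 values kept their direction and side of the threshold, 20 no longer passed and 2 newly passed. In 4 the log2 fold change reversed, each in a gene that did not pass either way: Hist1h2ae, Hist2h2be and Hist1h4d turned lower without pMIR-Sox2 replicate 3, and Hist1h4i turned higher without pMIR-Sox2 replicate 1. Leaving out 1 library at a time, Hist1h2ae ran from -0.149 to 0.226, Hist2h2be from -0.0604 to 0.327, Hist1h4d from -0.123 to 0.557 and Hist1h4i from -0.329 to 0.0321. The ratios of the class sums moved by less than the spread between libraries in every setting tried for them. With 3 libraries in a group, leaving 1 out can hardly move a ratio further, so this does not measure stability. Without pMIR-Sox2 replicate 3 the log2 ratio went from 0.476 to 0.0959 for H2A and from 0.425 to 0.119 for H2B. It went from 0.474 to 0.275 for H3 and from 1.03 to 1.00 for H1. That of H4 changed sign without pMIR replicate 2 (log2 ratio -0.03) or pMIR-Sox2 replicate 3 (-0.26). The 19 members with 14 to 60 counts in all were too low for the main test.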
